A study of Bos taurus with 12 samples.

Results

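The plasminogen activators, the matrix metalloproteinases and their inhibitors that are linked to hatching were followed in bovine expanded blastocysts of known sex. They are PLAU, PLAUR, PLAT, SERPINE2, MMP2, MMP9, MMP14, TIMP2 and TIMP3, chosen by an exact match to the gene symbol, and they make up 9 of the 32637 genes in the table of counts. All 9 were listed, 5 of them had enough reads to be tested between the sexes, and the other 4 were counted at 0 to 31 reads per library. The question was whether these genes differ between female and male embryos, how far they vary among pools of one sex, and which of them vary together.

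The study compared the transcriptomes of female and male bovine embryos produced in vitro from slaughterhouse oocytes and frozen semen. The 6 female and 5 male RNA-seq libraries were each made from a pool of 2 cut expanded blastocysts of the same sex, collected on Day 7 or Day 8. Sex was called by PCR on a separate piece of each embryo, and the sequenced piece kept both cell layers and its share of the zona. Libraries were made by amplifying full-length cDNA (SMART-Seq HT PLUS). No embryo was treated, and a replicate is a pool of embryos, so differences between single embryos were not measured.

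Hatching is the escape of the blastocyst from the zona pellucida, the glycoprotein coat laid down around the oocyte. Plasminogen activators are serine proteases that cut plasminogen into plasmin, a broad protease that can also activate matrix metalloproteinases, and serpins trap these enzymes in inactive complexes. Matrix metalloproteinases are zinc enzymes that cut collagens and other matrix proteins, and the TIMP proteins bind and block their active sites. Both systems are known from the trophectoderm, the outer epithelium that lies against the zona and later meets the endometrium.

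Reads counted on genes numbered 6664112 to 16162985 in the female libraries and 9942952 to 21392764 in the male ones. The sex labels were checked with 13 Y-linked genes, which held 248 to 859 reads per female library and 7854 to 15158 per male library, and with XIST, the RNA that coats the inactive X, at 52.3 to 261 CPM in females and 0.745 to 3.97 CPM in males. CPM are counts per library size after adjustment by TMM factors, which correct for differences in RNA composition. Male 5 was the deepest library and had the fewest genes with reads, 14937 against 16985 or more in the others. All 10 trophectoderm markers were counted above 3 reads in every library. Of 7 inner cell mass markers, 6 were in the table, all above 3 reads in every library, as were 5 of 7 hypoblast markers. Of 7 cumulus cell markers only FSHR was above 3 reads in every library, and AMH and FOXL2 were above it in 0 libraries.

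TIMP2 was the member that differed between the sexes, with a female mean 2.18 times the male mean. TIMP2 blocks several matrix metalloproteinases and also serves as the adaptor through which MMP14 activates the MMP2 precursor. It lies on chromosome 19 (chr19:53460835-53512593, ARS-UCD2.0). In females TIMP2 ranged from 62.6 CPM to 127 CPM with a median of 96.3 CPM. In males it was counted at 69.8, 26.6, 39.8, 38.8 and 44.9 CPM in replicates 1 to 5. The sexes overlapped through male 1, which lay above female 3, and the other 4 male libraries lay below all 6 females. The mean was 95.8 ± 26.4 CPM in females (SD, n = 6) and 44.0 ± 15.9 CPM in males (SD, n = 5).

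The log2 fold change of TIMP2, male over female, was -1.15 with a standard error of 0.25 and a 95% interval from -1.69 to -0.60 (edgeR quasi-likelihood test, adjusted p = 0.0566). This passed the threshold for sex-biased genes, an FDR under 0.1 with a fold change over 1.5. TIMP2 was thus 1 of the 5 tested members called sex-biased, in a comparison that called 1.91% of the 12802 tested genes, 192 of them as higher in females and 53 as higher in males. The call was close to its threshold. It was kept without female 2, female 3, male 1 or male 5 and lost without any 1 of the other 7 libraries, with adjusted p between 0.0186 and 0.145 in edgeR over the 11 fits. Its log2 fold change in those fits stayed between -1.41 and -1.01.

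The first number of the library name groups the libraries into 3 sets, and the fit used it as a block. In each of these sets every female library lay above every male library for TIMP2, as it did for 4.18% of all tested genes. The log2 ratio of the male to the female mean was -0.94 in set 1, -0.86 in set 2, which held 1 male library, and -1.56 in set 3. The RNA was bulk RNA, in which fewer cells of a type and less RNA per cell cannot be told apart. The summed level of the trophectoderm markers ranged from 7879 to 23154 CPM in females and from 9195 to 36145 CPM in males, and that of the hypoblast markers from 228 to 621 CPM and from 208 to 467 CPM. Summed inner cell mass markers ranged from 560 to 980 CPM in females and from 792 to 1076 CPM in males. The part of cell makeup in the TIMP2 difference was not tested.

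**Figure D1:**
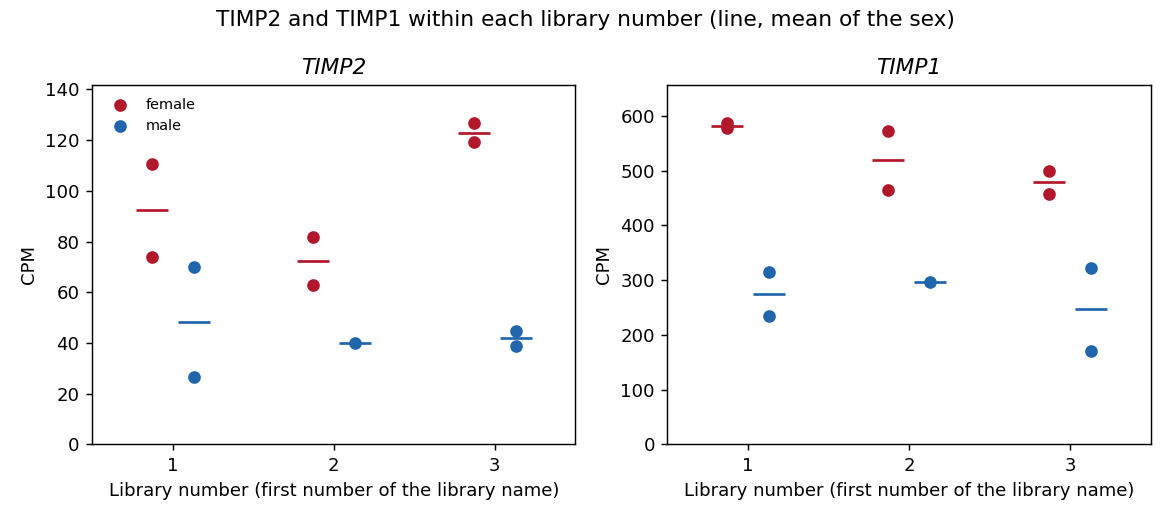
TIMP2 (left) and TIMP1 (right) in CPM, on linear axes from 0, by the first number of the library name, with 1 point per pool, females in red and males in blue, and a line at the mean of each sex. In all 3 sets the female points lie above the male points for both genes.

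TIMP3, the inhibitor of this family that stays bound to the matrix, did not pass the test. It lies on chromosome 5 (chr5:71402333-71459972). TIMP3 ranged from 1.22 to 6.54 CPM in females with a median of 3.34 CPM. In males it was counted at 1.16, 4.12, 6.18, 0.556 and 9.11 CPM, so that both the highest and the lowest library were male. Its means were 3.44 ± 2.19 CPM in females (SD, n = 6) and 4.23 ± 3.56 CPM in males (SD, n = 5). The log2 fold change was 0.59 with a standard error of 0.60 and a 95% interval from -0.72 to 1.89 (edgeR, adjusted p = 0.726), and it was -0.06 without male 5. TIMP3 was counted from 7 to 188 reads per library, and SYN3, an annotated gene that overlaps it, reached 7.29 CPM. Whether the counting used strand was not given in the sources used here, so reads of the overlapping pair may not be fully told apart.

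PLAU, the urokinase-type plasminogen activator, had the largest SD of log2 CPM within sex of the 5 tested members. It lies on chromosome 28 (chr28:29793733-29799834). In females PLAU ranged from 119 to 796 CPM with a median of 325 CPM. Females 1, 4 and 6 were at 502, 737 and 796 CPM, and females 2, 3 and 5 were at 147, 119 and 132 CPM. The males were at 72.6, 808, 77.8, 141 and 311 CPM, so the library with the most and the library with the least PLAU were both male. The highest was 11.1 times the lowest, and no library lay between 147 and 311 CPM. Since PLAU was counted at 877 to 12639 reads per library, this spread is much larger than counting error.

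The means of PLAU were 406 ± 314 CPM in females (SD, n = 6) and 282 ± 309.5 CPM in males (SD, n = 5), and the sexes overlapped over most of their range. The log2 fold change was -0.76 with a standard error of 0.79 and a 95% interval from -2.49 to 0.96 (edgeR, adjusted p = 0.732). An interval of this width includes no change, a several-fold difference in favour of females and a smaller one in favour of males. Without male 2, the highest library, the log2 fold change was -1.74 (edgeR, adjusted p = 0.363), and without female 6 it was -0.12 (edgeR, adjusted p = 0.978). After the mean of each sex was removed, the SD of log2 CPM of PLAU was 1.38, larger than in 95.5% of the tested genes and than in all of the 500 tested genes nearest to it in mean level. The median SD of all tested genes was 0.48.

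PLAUR, the receptor that holds PLAU at the cell surface, varied nearly as widely. It lies on chromosome 18 (chr18:51865096-51878376). PLAUR ranged from 2.40 to 22.4 CPM in females with a median of 6.58 CPM, with female 4 highest and female 6 next at 16.8 CPM. In males it was counted at 3.14, 23.9, 1.54, 9.77 and 5.09 CPM. Male 2 was the highest of all 11 libraries, as it was for PLAU. The means were 9.99 ± 7.84 CPM in females (SD, n = 6) and 8.69 ± 9.04 CPM in males (SD, n = 5). The log2 fold change of PLAUR was -0.29 with a standard error of 0.81 and a 95% interval from -2.06 to 1.47 (edgeR, adjusted p = 0.917), and its sign turned without female 6 (0.39) or without male 3 (0.33). Its SD within sex was 1.31 on the log2 scale, larger than in 94.4% of the tested genes and in 95.6% of the 500 nearest in level.

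SERPINE2, also called protease nexin 1, traps PLAU, PLAT and thrombin, and it was the steadiest of the tested members. It lies on chromosome 2 (chr2:112087763-112158698). SERPINE2 ranged from 100.2 to 167 CPM in females with a median of 147 CPM, and the males were at 159.9, 209, 140.1, 160.5 and 169.5 CPM. Male 2 was again the highest library and female 3 the lowest, a ratio of 2.09. The mean was 139.5 ± 24.0 CPM in females (SD, n = 6) and 168 ± 25.4 CPM in males (SD, n = 5). The log2 fold change was 0.22 with a standard error of 0.14 and a 95% interval from -0.07 to 0.52 (edgeR, adjusted p = 0.527). The upper end of that interval lies below a 1.5-fold change, the smallest that the threshold admits. Its SD within sex was 0.24, with 10.9% of all tested genes and 30% of the 500 nearest in level steadier than it. The SD of TIMP2 was 0.45, with 45.8% and 74.2% steadier, and that of TIMP3 was 1.27, with 93.7% and 86.6% steadier.

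**Figure D2:**
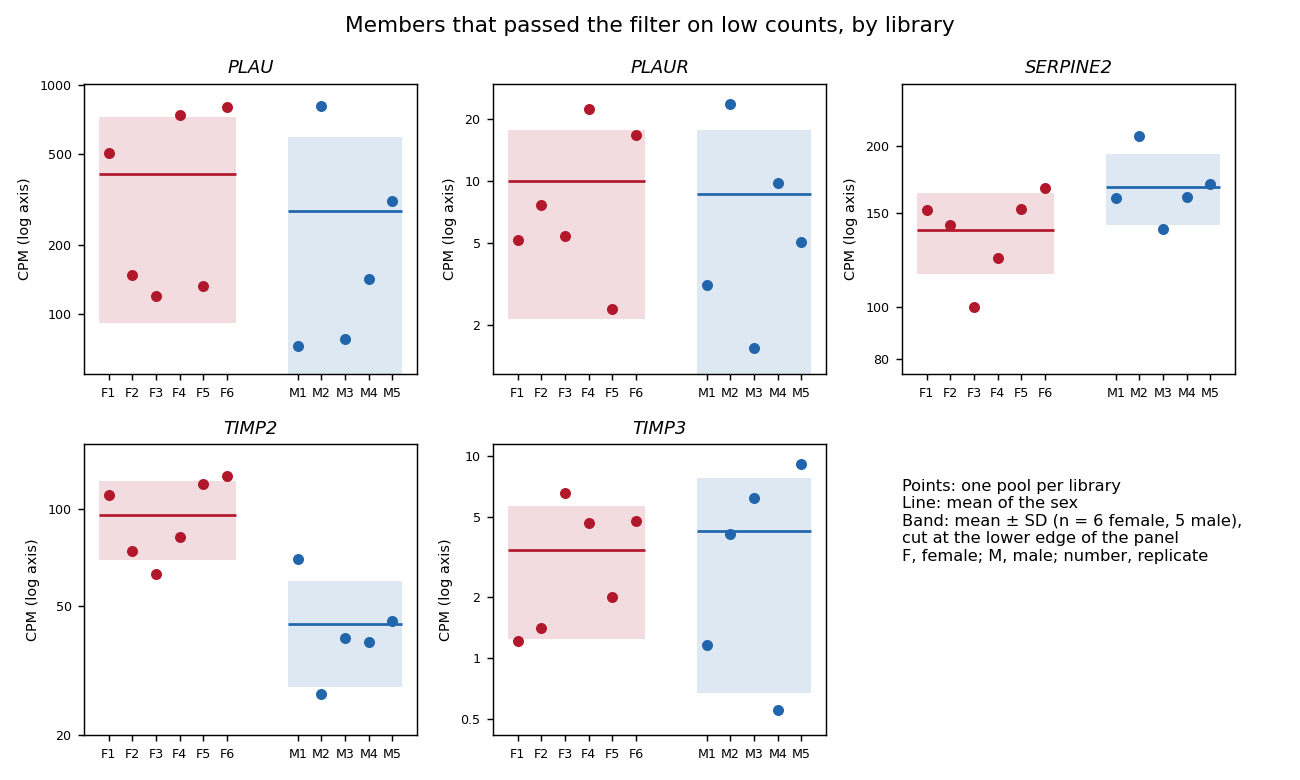
CPM on log axes of the 5 tested members in each library, 6 female pools in red and 5 male pools in blue, with the mean of each sex as a line and mean ± SD as a band. For TIMP2 only male 1 reaches the female range, whereas the highest library is 11.1 times the lowest for PLAU, 15.5 times for PLAUR and 2.09 times for SERPINE2.

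The other 4 members, PLAT and the 3 metalloproteinases, fell below the filter on low counts and were compared as single values with an exact permutation test over libraries, whose smallest p is 0.00216. None of the 4 passed at 0.05. PLAT, the tissue-type plasminogen activator, lies on chromosome 27 (chr27:37053712-37077724). It was counted at 25, 19, 13, 2, 3 and 1 reads in females 1 to 6 and at 2, 2, 3, 2 and 0 reads in the males. Females 1, 2 and 3 were the 3 libraries above 3 reads, the limit that a count of 0 allows, and no male library was above it. The mean was 0.925 ± 0.873 CPM in females (SD, n = 6) and 0.146 ± 0.084 CPM in males (SD, n = 5), and the test over libraries gave p = 0.0866 (two-sided exact permutation test).

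MMP2, gelatinase A, cuts type IV collagen of basement membranes and lies on chromosome 18 (chr18:23753066-23779474). It was counted at 18, 6, 6, 15, 0 and 31 reads in females and at 0, 5, 2, 2 and 10 reads in males. MMP2 was thus above 3 reads in 5 female and 2 male libraries, and a female and a male library both had 0. The mean was 1.08 ± 0.846 CPM in females (SD, n = 6) and 0.260 ± 0.233 CPM in males (SD, n = 5; two-sided exact permutation test, p = 0.0909). MMP9, gelatinase B, with a similar range of substrates, lies on chromosome 13 (chr13:74746991-74754302). It was counted at 30, 5, 8, 7, 7 and 2 reads in females and at 7, 1, 6, 8 and 0 reads in males, with female 1 far above the rest. The mean of MMP9 was 0.866 ± 0.746 CPM in females (SD, n = 6) and 0.341 ± 0.282 CPM in males (SD, n = 5; two-sided exact permutation test, p = 0.136).

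MMP14, the membrane-anchored metalloproteinase that activates the MMP2 precursor, lies on chromosome 10 (chr10:21969250-21977729) and had the fewest reads of the 9 members. It was counted at 1, 0, 7, 0, 3 and 2 reads in females and at 6, 1, 3, 0 and 2 reads in males, and 1 library of each sex was above 3 reads. The mean was 0.169 ± 0.20 CPM in females (SD, n = 6) and 0.178 ± 0.190 CPM in males (SD, n = 5; two-sided exact permutation test, p = 0.955). RBM23, a gene annotated over part of the same stretch, was counted at up to 24.7 CPM. Summed over libraries, reads in females and males numbered 63 and 9 for PLAT, 76 and 19 for MMP2, 59 and 22 for MMP9, and 13 and 12 for MMP14. Female 1 alone held 25 of the PLAT and 30 of the MMP9 reads. No difference between the sexes passed in these 4 genes with all libraries, and leaving out 1 female library moved some values past 0.05. Without female 6, p was 0.00794 for PLAT and 0.0397 for MMP9, and without female 5 it was 0.0238 for MMP2 (two-sided exact permutation tests). In each case the library left out was the female with the fewest reads of that gene, so leaving it out raised the female mean. For each of these genes the other 10 tests without 1 library did not pass at 0.05. These p-values were not adjusted for the number of tests, and no sex difference is drawn from them.

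**Figure D3:**
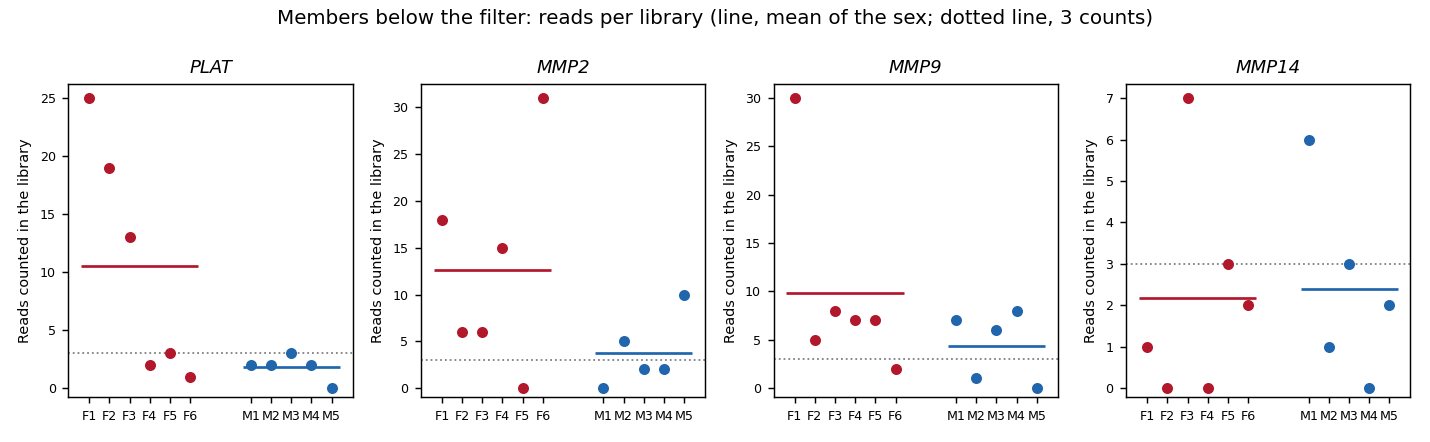
Reads counted per library for PLAT, MMP2, MMP9 and MMP14, on linear axes, with 6 female pools (F) in red, 5 male pools (M) in blue, a line at the mean of each sex and a dotted line at 3 counts. Single female libraries, such as F1 for PLAT and MMP9, stand above the rest, and 7 reads is the most that MMP14 reached.

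Of 8 pairs of an enzyme with its receptor or inhibitor, 6 included a member below the filter, which left PLAU with PLAUR and PLAU with SERPINE2. With the mean of each sex removed, log2 CPM of PLAU and PLAUR rose together across the 11 libraries, with Pearson's r = 0.80 (permutation p = 0.00448, adjusted p = 0.0224 over 10 relations) and Spearman's rho = 0.80 (permutation p = 0.00476, adjusted p = 0.0238). Without male 2 and female 6, the libraries farthest from the median of PLAU, r was 0.64 (permutation p = 0.0673), so the call rests on those libraries. For PLAU and SERPINE2, r was 0.60 (permutation p = 0.0511, adjusted p = 0.102) and rho was 0.63 (permutation p = 0.0440, adjusted p = 0.0796), and r was 0.28 without the same libraries (permutation p = 0.475). With the library number also removed, r of this pair was 0.76 (permutation p = 0.00903, adjusted p = 0.0226). That test permuted the 11 deviations freely and did not allow for the means removed. Its p can therefore be too small, and no call is drawn from it.

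PLAU also varied with the summed markers of the cell layers, a relation that was added after the values were seen. These sums add CPM and so rest mainly on their most abundant genes. In the trophectoderm list KRT8 was at 2285 to 20143 CPM and LGALS3 at 2945 to 9391 CPM, whereas CDX2 was at 2.34 to 25.3 CPM. In the inner cell mass list POU5F1 was at 287 to 737 CPM, SPIC at 55.8 to 536 CPM, NANOG at 9.31 to 292 CPM and SOX2 at 1.68 to 5.45 CPM. In the hypoblast list GATA6 was at 143 to 212 CPM and PDGFRA at 17.9 to 337 CPM, whereas SOX17 was at 0.0762 to 1.24 CPM. The sums are therefore not a measure of cell numbers. With the summed trophectoderm markers r was 0.72 (permutation p = 0.0151, adjusted p = 0.0379) and rho was 0.73 (permutation p = 0.0138, adjusted p = 0.0346), and r was 0.72 without male 2 and female 6, where the adjusted p of 0.0796 (permutation test) no longer passed. With the summed inner cell mass markers r was -0.74 (permutation p = 0.00900, adjusted p = 0.0300) and rho was -0.77 (permutation p = 0.00747, adjusted p = 0.0249), and r was -0.60 without those libraries (permutation p = 0.0909), a relation that then no longer passed. The summed cumulus cell list gave r = 0.85 (permutation p = 0.000720, adjusted p = 0.0072) and rho = 0.90 (permutation p = 0.00029, adjusted p = 0.0029), and r was 0.80 without them (adjusted p = 0.0331, permutation test). That list summed to only 5.38 to 32.7 CPM, of which FSHR gave 4.58 to 27.3 CPM, with AMH and FOXL2 at or near 0. With the hypoblast markers r was -0.42 (permutation p = 0.201, adjusted p = 0.287) and rho was -0.45 (permutation p = 0.174, adjusted p = 0.249). The makeup of the pools and the level of PLAU within a cell cannot be told apart in these libraries.

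**Figure D4:**
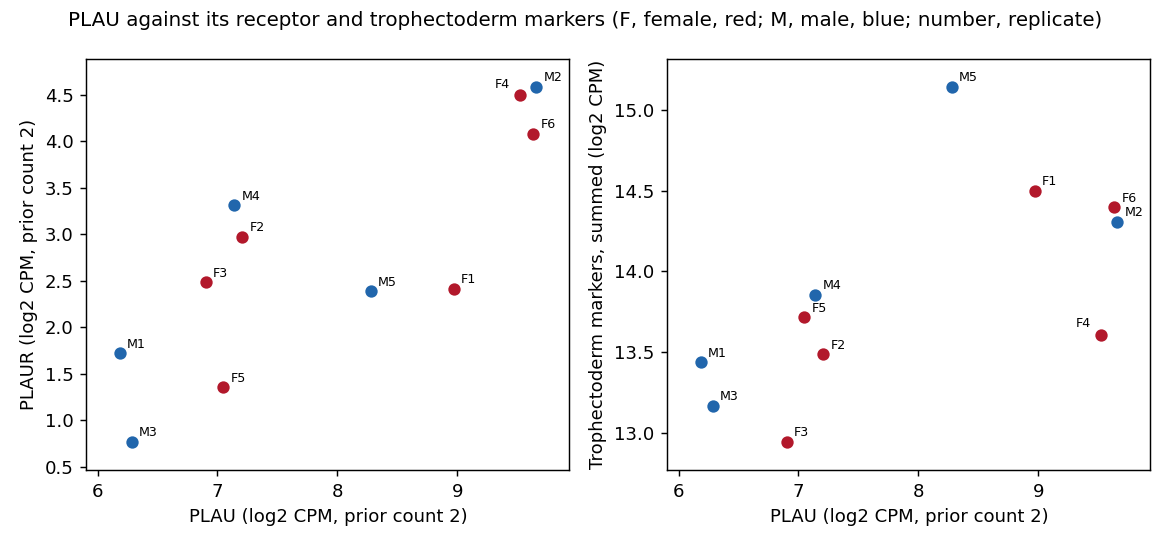
PLAU against PLAUR (left) and against the summed trophectoderm markers (right), all in log2 CPM, with 1 point per library. Male 2, female 4 and female 6 hold the most PLAU and PLAUR, and male 5 has the highest marker sum with PLAU at 311 CPM.

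The genes whose patterns were most like each tested member were listed by Pearson's r of log2 CPM over the 11 libraries, with the mean of each sex removed, as a description. For PLAU they were TNFSF9 (r = 0.97), MYC (0.94) and C3H1orf210 (0.93), with PLAUR in place 155 of the tested genes. For PLAUR they were CD8B (0.94), PSMB4 (0.93) and CASP8 (0.93), and PLAU took place 83. SERPINE2 was most like ZNF75D (0.95), GAB1 (0.93) and LMAN1 (0.92). TIMP2 was most like SULT2B1 (0.96), KLHDC9 (0.95) and RRM2 (0.94), whereas its r with PLAU was -0.16 and with PLAUR -0.40. TIMP3 was most like SRSF2 (0.91), ATP2C2 (0.91) and TRIO (0.89). The r of the TIMP genes with the plasminogen activator and its receptor ranged from -0.40 to 0.28.

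The wider proteolytic systems were read from 7 lists of 86 genes, of which 81 were in the table and 50 were tested. One of these 50, TIMP1, was called sex-biased, 5 had an unadjusted p under 0.05, and 29 had a negative log2 fold change. Over all tested genes 13.2% had an unadjusted p under 0.05 and 49.5% a negative log2 fold change, so the first of these counts is no more than the background share. Their median log2 fold change was -0.07, beside 0.01 for all tested genes, and 1.91% of all tested genes were called. DESeq2 with the library number called 3 of the listed genes, TIMP1, TMPRSS4 and ADAMTS1, all higher in females. With sex alone DESeq2 called TIMP1 and TMPRSS4 but not ADAMTS1, whose adjusted p was then 0.321. TIMP1, a secreted inhibitor of most matrix metalloproteinases, lies on the X chromosome (chrX:85939719-85943558) and was higher in females. It ranged from 458 to 586 CPM in females and from 171 to 322 CPM in males, and the sexes did not overlap. All females lay above all males in 241 of the 12802 tested genes. The mean of TIMP1 was 526 ± 59.3 CPM in females (SD, n = 6) and 268 ± 64.6 CPM in males (SD, n = 5), with a log2 fold change of -0.97, a standard error of 0.18 and an adjusted p of 0.0244 (edgeR). The call was kept in all 11 fits without 1 library. Of 476 tested X-linked genes, 27.7% were called higher in females and the median log2 fold change was -0.85, whereas 0.361% of 12172 autosomal genes, the class that TIMP2 belongs to, were called higher in females.

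Within the plasminogen system 8 of 13 genes were tested and 0 were called in edgeR, with 1 at an unadjusted p under 0.05. The smallest p was that of IGF2R, the receptor of mannose 6-phosphate and IGF2, with a log2 fold change of -0.61, a standard error of 0.20 and an adjusted p of 0.218 (edgeR). Among other matrix metalloproteinases 5 of 16 were tested, 0 were called and 0 had an unadjusted p under 0.05, and MMP25 came nearest with a log2 fold change of 0.80 (edgeR, adjusted p = 0.570). Of the ADAM and ADAMTS proteases 7 of 14 were tested and 6 of these had negative log2 fold changes, with 0 called in edgeR and 1 at an unadjusted p under 0.05. ADAMTS1, a secreted protease of proteoglycans, was at -2.15 with a standard error of 0.89 (edgeR, adjusted p = 0.325). All 14 listed cathepsins and cystatins in the table were tested, with 0 called in edgeR and 1 at an unadjusted p under 0.05. CTSZ, a lysosomal carboxypeptidase, came nearest with 0.91 and a standard error of 0.36 (edgeR, adjusted p = 0.291).

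Of the cell surface serine proteases, convertases and Kunitz inhibitors 11 of 16 were tested and 0 were called in edgeR, with 1 at an unadjusted p under 0.05. That gene was TMPRSS4, a membrane-anchored serine protease, at 11.5 ± 5.90 CPM in females (SD, n = 6) and 4.25 ± 3.10 CPM in males (SD, n = 5). Its log2 fold change was -1.79 with a standard error of 0.47 and an adjusted p of 0.104 (edgeR), just short of the threshold, which it passed in 4 of 8 alternative analyses and in 2 of 11 fits without 1 library. Of the zona pellucida glycoproteins themselves, which are made by the oocyte, only ZP3 was tested, with a log2 fold change of -0.43 and a standard error of 0.34 (edgeR, adjusted p = 0.644). ZP2 and ZP4 stayed below the filter, with at most 33 reads and 7 reads per library.

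**Figure D5:**
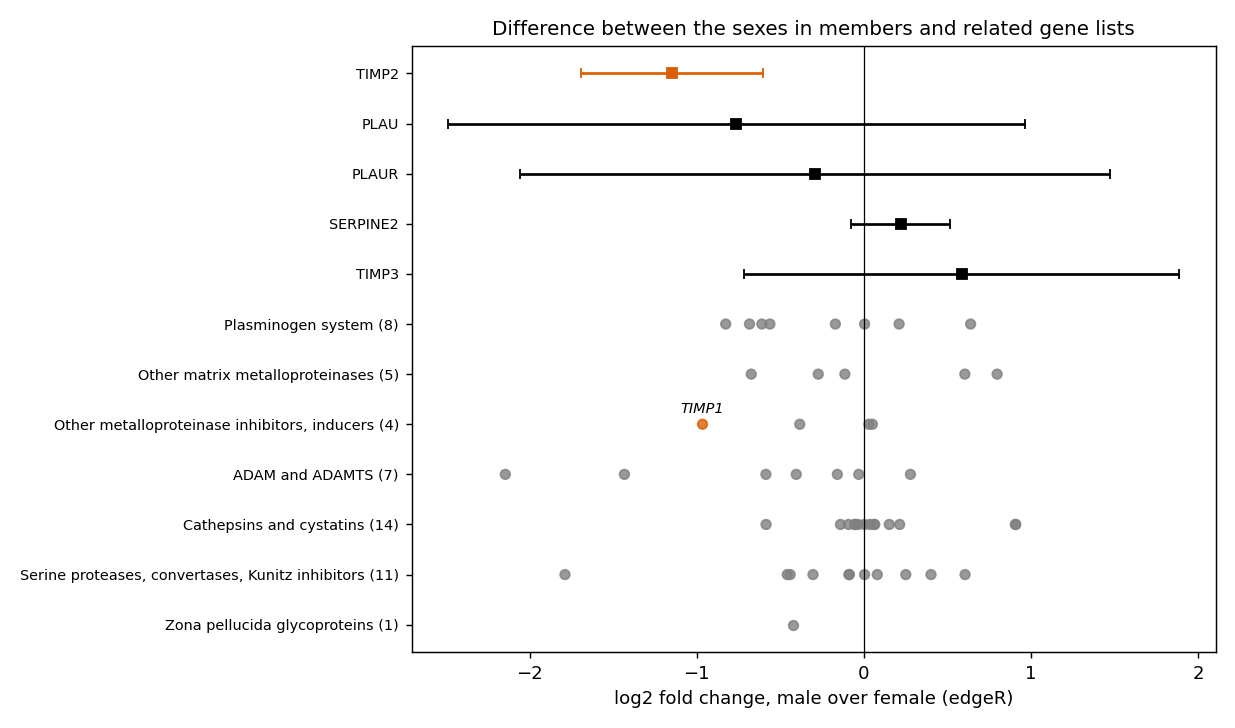
Log2 fold change, male over female, of the 5 tested members (squares, with 95% intervals) and of the tested genes in 7 related lists (points, with the number tested in brackets), where called genes are orange. TIMP2 and TIMP1 are the called genes, both at negative values, and the intervals of PLAU and PLAUR extend on both sides of 0.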

How the data were processed

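RNA-seq libraries of 6 female and 5 male pools of expanded blastocysts were analysed. The Iso-seq sample of 4-cell embryos was not used here. Per the study's methods, the authors used fastp 0.20.0 for trimming and STAR 2.7.10b for alignment to the bovine ARS-UCD assembly, with at most 3 mismatches, and deposited the featureCounts output as raw counts per gene symbol. Whether strand was used in counting is not given in the sources used here. Symbols were matched to RefSeq for positions, and 30271 of 32637 matched.

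The tests on counts used edgeR 4.0.16 (R 4.3.3). Genes kept by filterByExpr by sex (12802) were normalized with TMM factors and tested with the quasi-likelihood test, male against female. The collection week, the study's covariate, is not in the labels, so the first number of the library name was the block in its place. P-values were adjusted by Benjamini-Hochberg over all tested genes, and genes were called where the FDR was under 0.1 with over 1.5-fold change. The standard error is the size of the log2 fold change divided by the square root of F. Log2 CPM used a prior count of 2. Permutation tests used numpy 2.4.6 in python 3.11.15, with ranks from scipy 1.17.1, over every split or ordering or with 100000 resamples. The limit of 3 counts for a count of 0 covers counting error only. P-values measure the spread between pools. The edgeR step was also run on simulated counts without an effect of library number, and no result here rests on that run.

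The members and gene lists were chosen with earlier results of these data known. From each list the called genes, or the gene of smallest p, were named. Relations to marker lists and the separation within library numbers were added after the values were seen. Levels were not compared between genes, since exon lengths were not at hand. Alternatives were no block, TMM factors from autosomal genes or RLE factors, a looser or stricter filter, DESeq2 1.42.0, an FDR of 0.05, another prior count and leaving out each library.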

Additional observations from a re-analysis of the deposited data

Results flagged for a closer look

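PLAT in male 5 was flagged as a library far from the others of its sex. It was counted at 0 reads (0.0 CPM), where the other 4 male libraries were at 0.159 to 0.211 CPM, each of them 2 or 3 reads. The gap made up 0.752 of the range of the 5 males, above the critical value of 0.710. Of 18 groups examined, the 9 members in each sex, 1 was flagged, and chance flags about 1 in 20 groups. A count of 0 in male 5 allows up to 3 reads.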

How the results depend on the processing

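TIMP2 kept its direction in all 19 alternative fits and its call in 7 of the 8 that kept all libraries, being lost at an FDR of 0.05. The number of members called was 1 in edgeR, 2 without the filter on low counts, where PLAU was also called (edgeR, adjusted p = 0.0122), 0 at an FDR of 0.05, and 0 to 1 over the fits without 1 library. The cause of these shifts was not tested. Sex-biased genes over the whole table numbered 245, 743 without the filter, 655 in DESeq2 with the library number and 739 without it, 125 at an FDR of 0.05, and 95 to 364 without 1 library. Called genes of the related lists numbered 1, 2 with TMM factors from autosomal genes, 6 without the filter, 3 in each DESeq2 fit, not the same 3 since ADAMTS1 was called only with the library number, and 1 to 2 without 1 library. Members below the filter with p under 0.05 numbered 0, and 0 to 2 without 1 library. Pairs that passed numbered 1, and 0 without the farthest libraries. With the library number also removed they numbered 2, PLAU with SERPINE2 being the other, in a test that did not allow for the means removed. Signs turned for MMP14 (-0.0696 to 0.0780 CPM without 1 library), PLAUR (-1.21 to 0.39) and TIMP3 (-0.062 to 0.87), and for the r of TIMP2 with trophectoderm markers (-0.12 with the library number removed) and with the cumulus list (0.64 without male 1 and male 2).

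Deviations of libraries of the same number and other sex had a mean correlation of 0.0735 (-0.111 to 0.351), and those of other number and other sex -0.0353 (-0.297 to 0.245). Not every same-number pair was above 0.1, so the numbers were not taken to pair the libraries. Within 1 sex, libraries of the same number had a mean correlation of -0.266, beside -0.192 for libraries of other numbers, so they were no more alike. Whether the number marks the collection week was not tested. Without the replicate block, 326 genes and 1 member, TIMP2 (edgeR, adjusted p = 0.0474), were called. Removing sex and library number as a replicate block left 2 pairs under the threshold, in the permutation test that did not allow for the means removed. PLAT and the 3 metalloproteinases had at most 31 reads per library, and no setting varied the depth.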

Other observations

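TIMP2 showed no passing relation to the marker sums over the 11 libraries, with r = 0.22 for trophectoderm (permutation p = 0.509, adjusted p = 0.590), -0.21 for inner cell mass (permutation p = 0.531, adjusted p = 0.590), -0.57 for hypoblast (permutation p = 0.0684, adjusted p = 0.114) and -0.17 for the cumulus list (permutation p = 0.617, adjusted p = 0.617). Spearman's rho was 0.28 (permutation p = 0.406), -0.21 (permutation p = 0.537), -0.62 (permutation p = 0.0478, adjusted p = 0.0796) and -0.05 (permutation p = 0.904). Without male 1 and male 2, the libraries with the most and the least TIMP2 among males, r was -0.83 for both inner cell mass (permutation p = 0.00513, adjusted p = 0.0326) and hypoblast markers (permutation p = 0.00652, adjusted p = 0.0326), 0.67 for trophectoderm (permutation p = 0.0487, adjusted p = 0.0961) and 0.64 for the cumulus list (permutation p = 0.0591, adjusted p = 0.0961). Within the 6 females alone, added after the values were seen, r was 0.85 for trophectoderm (exact permutation p = 0.0292, adjusted p = 0.0519 over 4 relations), -0.84 for inner cell mass (exact permutation p = 0.0389, adjusted p = 0.0519), -0.97 for hypoblast (exact permutation p = 0.00694, adjusted p = 0.0278) and 0.68 for the cumulus list (exact permutation p = 0.128, adjusted p = 0.128). Spearman's rho in females was 0.83, -0.83, -0.94 and 0.71, with adjusted p of 0.0778, 0.0778, 0.0667 and 0.136 (exact permutation tests), so the hypoblast relation passed by r and not by rho. The test within females was run for TIMP2 and not for PLAU, with the results over the 11 libraries known. Its adjusted p does not cover that choice of gene and sex, so no conclusion is drawn from the relation that passed. Nor is one drawn from the relations that passed without male 1 and male 2, since those libraries were left out for their TIMP2 values. The 5 males were not tested alone. In males 1 to 5 the inner cell mass sums were 1076, 792, 898, 986 and 888 CPM. Male 1, with the most TIMP2 of the males, had the highest of these sums, and male 2, with the least TIMP2, had the lowest. For these 2 libraries the direction is opposite to the negative r in females, so the female relations are not extended to males.

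Proteases and inhibitors outside the members were counted in these pools as well. MMP12, macrophage elastase, was at 125 ± 68.6 CPM in females (SD, n = 6) and 89.9 ± 45.6 CPM in males (SD, n = 5), with a log2 fold change of -0.27 and a standard error of 0.41 (edgeR, adjusted p = 0.833). PLG, the substrate of the activators, was counted at no more than 2 reads in any library. BSG, an inducer of metalloproteinases, was at 1106 ± 238 CPM in females (SD, n = 6) and 1191 ± 201 CPM in males (SD, n = 5; edgeR, adjusted p = 0.913). MMP12, PLG and BSG were chosen after their values were seen.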
